A study of Mus musculus with 12 samples.

Results

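Cluster 17 is one of 10 clusters of MC38 tumors that were grouped here as macrophages, and it was taken as every cell whose deposited cluster number was 17. Of these clusters the paper's text names 2, 5 and 26 as macrophage subclusters. It held 2338 of 93126 cells, which was 3.44% of the 68059 cells of the 10 macrophage clusters, and the other 9 clusters (2, 4, 5, 9, 15, 19, 21, 26 and 27) held 65721 cells. Tumor macrophages arise largely from blood monocytes that enter the tumor, and some of them divide there. A dividing cell copies its DNA in S phase, when replication enzymes and the histones that package the new DNA are made, and it then passes through G2 into mitosis, when genes for the spindle and chromosome segregation are on. Most canonical histone genes lie in clusters and are transcribed mainly in S phase.

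The samples were 12 pools of 4 MC38 tumors each, and every pool was read as 1 single-cell RNA library of the 5′ end of transcripts. MC38 is a colon carcinoma line of C57BL/6J origin, and its cells were injected under the skin of female mice aged 8 to 12 weeks. The hosts were C57BL/6J mice (B6) or first-generation crosses of C57BL/6J with the Collaborative Cross strains CC001/UncJ, CC002/UncJ, CC007/UncJ, CC036/UncJ, CC075/UncJ, CC079/TauUncJ or CC080/TauUncJ, named below by their CC number. At a tumor volume of 75 to 110 mm3 the mice received 1 intraperitoneal dose of isotype control antibody (2A3) or of an antibody against PD-1 (29F.1A12, aPD1), and tumors were taken 48 h later. Before loading, cells were sorted to about 90% CD45+ leukocytes and 10% CD45- cells, so shares are given among macrophages and not among all cells of the tumor. A tumor below is 1 hashtagged specimen (1 pool, strain and treatment), and there were 48. The study classed CC001, CC002 and CC075 as responder strains and CC036, CC079 and CC080 as non-responder strains, and B6 and CC007 are left without a class here. Tumors of 1 strain share a genotype and each class has 3 strains, so p-values over tumors measure the spread between tumors and not between strains. Isotype and aPD1 tumors never carried the same hashtag, so the hashtag and the treatment cannot be told apart.

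Totals ran from 88816 to 17713491 unique molecular identifiers (UMIs, counted RNA molecules) per tumor, and cluster 17 held between 0 and 172 cells per tumor. Levels below are CPM: the UMIs of a gene summed over the cells of a cluster in a tumor, per 1000000 UMIs of those cells. They were computed in the 33 tumors with at least 20 cluster 17 cells. Where 1 value is given for a cluster it is the mean over tumors, and 3 values are the lowest, median and highest tumor. Of the cluster 17 cells, 229 (9.79%) had a barcode sequence also found in another library, against 10.9% of all cells.

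The macrophage label was checked against markers. Lyz2 (lysozyme) had a UMI in 86.4% of cluster 17 cells, Csf1r (the receptor for the macrophage growth factor CSF-1) in 34.3% and Adgre1 (F4/80) in 14.7%. The corresponding shares were 5.12%, 0.231% and 0.154% in T cell cluster 3, thinned in the same way. Of the 10 macrophage markers, 0 differed by 2-fold or more from the mean of the other macrophage clusters with the same direction in at least 80% of tumors. Their summed level was 11150, 14573 and 21842 CPM (lowest, median and highest tumor) against 12044, 17125 and 32142 CPM in the other macrophages, higher in cluster 17 in 5 of 33 tumors. The 10 T and NK cell markers summed to 0 to 19.4 CPM in cluster 17 and 2.99 to 20.2 CPM in the other macrophages of the same tumors. The 7 fibroblast markers summed to 0 to 21.4 CPM (3.99 to 17.2 CPM in the others), the 6 MC38 markers to 0 to 14.8 CPM (1.40 to 9.03 CPM), and the mast cell markers were at 0 in every tumor. The 6 granulocyte markers summed to 0 to 31.6 CPM against 24.4 to 259.6 CPM. 2 lists were higher in cluster 17 in most tumors, although not against cluster 26 (median ratios of 0.996 for the cDC1 and 0.937 for the B cell markers measured). The 4 cDC1 markers summed to 104.0, 222.8 and 439.2 CPM against 107.2, 179.8 and 285.9 CPM (30 of 33 tumors), and the 6 B cell markers to 7.25, 70.5 and 137.5 CPM against 14.6, 45.9 and 448.0 CPM (28 of 33). Of the cDC1 list, the defining Xcr1 and Clec9a were at 1.5 and 4.93 CPM, against 0.719 and 6.64 CPM in the other macrophages, and most of the sum was Cadm1 (156.4 against 95.7 CPM). The B cell sum came mainly from Ighm (immunoglobulin mu), at 62.9 CPM in the cells of cluster 17, whereas Cd79a was at 0.161 CPM.

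Cells of cluster 17 held more counted RNA molecules than most other macrophages. The median was 6874 UMIs and 2543 genes per cell, against 3410 UMIs in the other macrophages, 4383 in cluster 26 and 10418 in cluster 15, the smallest macrophage cluster with 293 cells. Of the cluster 17 cells, 50.4% had more than 2 times the median UMIs of the other macrophages. A UMI from a narrower set of T cell, B cell and fibroblast markers, without Ighm, was present in 46 cluster 17 cells (1.97%) and in 1.46% of the other macrophages. Cells were not thinned for this count, so their depth differed as given above. Doublets of 2 macrophages would not be seen in these markers, and their part in the RNA content was not tested.

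To compare cells of unequal depth, each cell was thinned to 1000 UMIs, which left out 17 cells of cluster 17 and 4279 macrophages in all. The genes counted were 41 of S phase, 52 of G2 and mitosis (G2/M) and 66 canonical histone genes. A thinned cluster 17 cell held on average 3.52 UMIs of the S phase genes, 9.67 of the G2/M genes and 6.5 of the histone genes. Cluster 15 came next on all 3 lists, with 1.83, 3.32 and 1.02 UMIs. Cluster 19 had 1.51, 2.25 and 0.665 UMIs and cluster 26 had 1.15, 2.41 and 0.405 UMIs. At least 5 S phase or G2/M UMIs were found in 97.8% of cluster 17 cells. The share was 42.0% in cluster 15, 25.7% in cluster 26, 23.4% in cluster 19 and 1.89 to 7.68% in the remaining 6 clusters. The separation was sharper for the histone genes, of which at least 3 UMIs were found in 84.6% of cluster 17 cells, 12.8% of cluster 15 and 2.45% of cluster 26. Only 8 thinned cluster 17 cells (0.345%) had no S phase or G2/M UMI, against 17.2% of cluster 26.

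**Figure D1:**
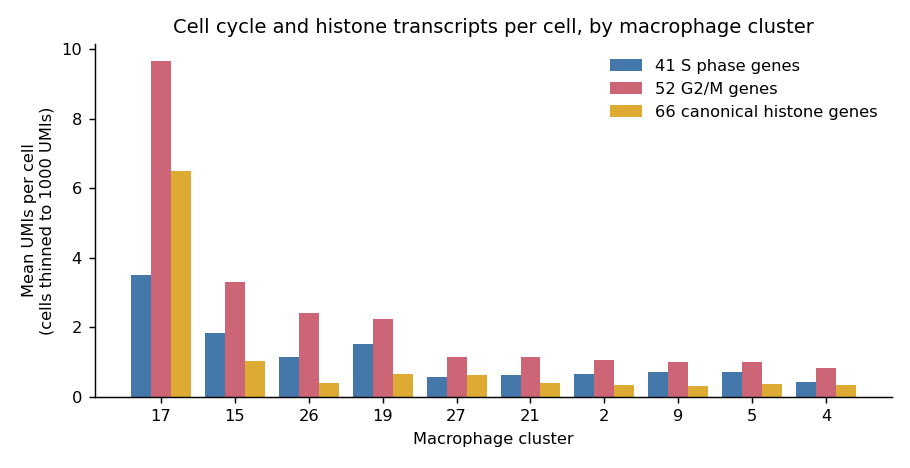
Mean UMIs per cell of the S phase, G2/M and canonical histone lists (bars, cells thinned to 1000 UMIs) in each macrophage cluster. Cluster 17 has the tallest bars (3.52, 9.67 and 6.5 UMIs). In proportion its histone bar stands furthest from the next, in cluster 15 (1.02 UMIs), and in UMIs its G2/M bar does (3.32 UMIs in cluster 15).

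Cluster 17 did not hold all macrophages with cell cycle transcripts. Of the 9606 macrophages with at least 5 such UMIs, 23.6% were in cluster 17, 44.7% in cluster 26 and 11.3% in cluster 2. Within cluster 17 the G2/M UMIs outnumbered the S phase UMIs in 83.1% of cells and the reverse held in 11.8%. The list of G2/M genes is longer and its genes are not equally abundant, so these shares do not count phases. By tumor, the share of cluster 17 cells with at least 5 cycle UMIs was 92.3% at the lowest and 100% at the highest, over the 28 tumors of classed strains with at least 20 such cells. In the other macrophages of the classed strains it was 4.84 to 23.8% in pools 1 to 5 and 3.06 to 18.2% in pools 8 to 12. The cluster was formed from these genes and its share is near the ceiling of this measure, so its narrow range is not a result. The study removed cell cycle phase, total count, and mitochondrial and ribosomal shares by regression before clustering, and these cells still formed a cluster.

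The genes that led cluster 17 were compared with the mean of the 9 other macrophage clusters, each weighted equally, as a ratio of CPM + 1. Clusters were formed from these same genes, so the values are a description with no test. Of 3211 genes with at least 50 CPM in cluster 17, 296 were 2-fold or more higher and higher in at least 80% of the 33 tumors (9.22%). Of 3276 genes with at least 50 CPM in the others, 224 were lower by the same rule (6.84%). Of the 296 higher genes, 85 were in the S phase, G2/M or histone lists and 211 in none of them. Of the 20 leading genes 12 encode histones, and all 20 were higher than in the other macrophages in 33 of 33 tumors. The rule itself required 80% of tumors. How many of the 3211 genes had no overlap between cluster 17 and the other macrophages was not counted. A lack of overlap in the genes named below therefore describes the cluster and is not a result about those genes.

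The histone genes came first. Hist1h1b, a linker histone gene of the large histone cluster (chr13:21779883-21780625, minus strand, GRCm38), was at 506.5 CPM in the lowest, 896.0 in the median and 1349 in the highest tumor in cluster 17. In the other macrophages of the same tumors it was 13.7, 21.7 and 46.8 CPM, so the groups were far apart, and the ratio to the cluster mean was 20.3. Hist1h2ae (chr13:23570517-23571220, minus strand), a core histone H2A gene, was at 795.0, 1192 and 1663 CPM against 18.5, 37.5 and 64.6 CPM. Hist1h1d (chr13:23553262-23560686, plus strand), another linker histone gene, was at 315.9, 545.2 and 994.6 CPM against 10.7, 21.8 and 34.9 CPM. No tumor of cluster 17 reached down to the highest value of the other macrophages for any of the 3 genes. Hist1h2ak, Hist1h2ab and Hist1h2af, also of the H2A type, had ratios of 25, 23.4 and 23.0 at 164, 142 and 141 CPM. Histone genes of 1 type are close in sequence, and reads shared between copies cannot be assigned with certainty. The highest ratio of all, 29.8, belonged to Gm20628 at 303.6 CPM, annotated as antisense at chr3:96267075-96270289 on the minus strand. It overlaps Hist2h2bb (chr3:96269752-96270132, plus strand, ratio 14.52), and their reads may not be told apart.

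Over the whole list, 43 of the 44 canonical histone genes measured (at least 10 CPM in either) were 2-fold or more higher in cluster 17, with a median ratio of 8.02. This and the later list counts against the mean of the other clusters also required the same direction in at least 80% of tumors. A gene past 2-fold in the ratio alone was therefore not always counted. Of all 8591 genes measured in this way, 623 were higher (7.25%) and 455 lower (5.3%), and the median ratio was 0.993. The histone list was added after values were seen. Canonical histone transcripts largely lack a poly(A) tail, and how the library captured them was not tested. Slbp, whose product binds the stem-loop at the end of histone transcripts and is needed to make them, was at 177 CPM (ratio 2.37).

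Genes for cell division followed. Mki67, whose product coats mitotic chromosomes, was at 353.7, 572.1 and 789.1 CPM (lowest, median and highest tumor) against 20.1, 54.4 and 101.1 CPM. Top2a, which untangles DNA before segregation, was at 552.7, 671.5 and 885.4 CPM against 21.7, 52.5 and 86.4 CPM, a ratio of 10.6. Cdk1, the kinase that drives entry into mitosis, was at 143.0, 207.6 and 290.2 CPM against 8.53, 23.7 and 36.1 CPM. For each of these 3 genes the lowest cluster 17 tumor lay above the highest value of the other macrophages, which is again a description. Of the 51 G2/M genes measured, 50 were higher, with a median ratio of 5.86. Prc1, which bundles microtubules in the late spindle, had a ratio of 11.2. Nusap1, which binds spindle microtubules, had 12.7 and Birc5 (survivin) 7.06. Ccnb1 and Ccnb2, the mitotic B-type cyclins, had 6.00 and 3.75.

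Of the 40 S phase genes measured, 35 were higher, with a median ratio of 3.16. Rrm2, the ribonucleotide reductase subunit that limits DNA precursor supply, was at 112.0, 197.0 and 249.8 CPM against 5.66, 13.1 and 27.8 CPM. Tyms (thymidylate synthase) was at 76.6, 142.6 and 208.4 CPM against 5.92, 17 and 28.0 CPM. Pcna, the sliding clamp of the replication fork, had a smaller ratio of 2.79, and its lowest tumor (212.2 CPM) was still above the highest value of the others (154.8 CPM). Mcm5 and Mcm6, of the replicative helicase, had ratios of 3.11 and 2.30. Transcription factors of the cycle were also among the leading genes: E2f7 at 78.6 CPM (ratio 13), Mxd3, a MAX-binding repressor, at 51.6 CPM (18.1), and E2f8 at 73.8 CPM (8.25). Esco2, which acetylates cohesin in S phase, was at 119 CPM (16.2), and Neil3, a DNA glycosylase, at 130 CPM (12.4).

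**Figure D2:**
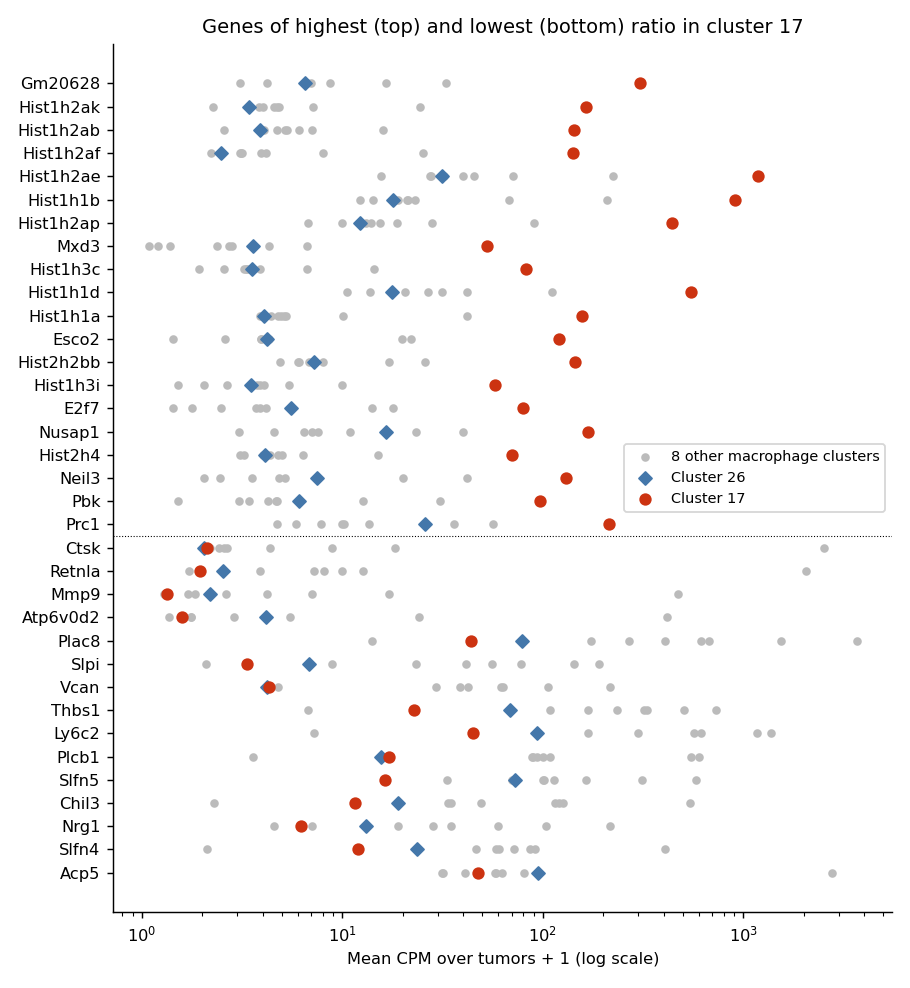
Mean CPM + 1 over tumors (log scale) of the 20 genes of highest and the 15 of lowest ratio, for cluster 17, cluster 26 and the 8 other macrophage clusters. For the upper 20 genes cluster 17 lies to the right of every other cluster, with Hist1h1b at 909 CPM against 16.9 CPM in cluster 26, and for several of the lower 15 (Ctsk, Retnla, Mmp9, Atp6v0d2 and Acp5) a single other cluster lies far to the right.

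The sequences just before the start sites of some genes higher in cluster 17 are shown because these genes were high together, and they were searched for letters known from promoters of cell cycle and histone genes. From the RefSeq promoters (build GRCm38.p6), the 250 bases before each start were searched on both strands for CCAAT, for the cell cycle element TTTGAA or TTCGAA, for TATAAA, and for the E2F-type strings TTCCCGC, TTTGGCGC and TTTGGCGG. The last 80 bases before the start are printed 5′ to 3′ in the direction of the gene, with matches on either strand in capitals. The first 6 windows below were chosen to show matches and the last, of a leading gene, has none. For Hist1h1d the RefSeq start differs from the start of the GENCODE position given above, and its window lies inside that position. The windows are chr13:21780626-21780705 (minus strand) for Hist1h1b, chr13:23554952-23555031 (plus) for Hist1h1d, chr13:23571221-23571300 (minus) for Hist1h2ae, chr11:99024190-99024269 (minus) for Top2a, chr10:69352913-69352992 (minus) for Cdk1, chr1:128359706-128359785 (minus) for Mcm6, and chr13:21833476-21833555 (minus) for Hist1h2ap.
Hist1h1b: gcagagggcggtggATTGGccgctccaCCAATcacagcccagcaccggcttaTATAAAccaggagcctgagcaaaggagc
Hist1h1d: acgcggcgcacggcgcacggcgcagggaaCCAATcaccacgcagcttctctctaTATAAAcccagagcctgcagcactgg
Hist1h2ae: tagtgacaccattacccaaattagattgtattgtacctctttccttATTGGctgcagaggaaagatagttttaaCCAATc
Top2a: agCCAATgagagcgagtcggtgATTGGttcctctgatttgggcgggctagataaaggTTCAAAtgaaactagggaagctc
Cdk1: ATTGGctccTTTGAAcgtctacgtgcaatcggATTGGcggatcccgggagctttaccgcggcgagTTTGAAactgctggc
Mcm6: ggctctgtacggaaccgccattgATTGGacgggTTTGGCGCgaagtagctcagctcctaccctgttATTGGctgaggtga
Hist1h2ap: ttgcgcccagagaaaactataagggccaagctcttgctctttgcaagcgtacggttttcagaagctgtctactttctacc

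The same 80 bases held no match in Hist1h2af, Mxd3, Neil3, Nusap1, Mki67 and Tyms. Over 250 bases, CCAAT was present in 34.5% of all 27025 promoters and in 36.9% of those of genes with at least 50 CPM in cluster 17. It was present in 82.0% of the histone promoters (50 of 61 matched), 76.1% of the G2/M promoters (35 of 46) and 69.0% of the S phase promoters (20 of 29). Among the genes 2-fold or more higher in cluster 17 the share was 61.5%. The other letters divided the lists differently. TATAAA was present in 45.9% of histone promoters against 13% of all, 2.17% of G2/M promoters and 10.3% of S phase promoters. The cell cycle element was present in 43.5% of G2/M and 45.9% of histone promoters against 17.4% of all and 17.2% of S phase promoters, but also in 5 of the 11 matched promoters of the 15 lowest genes (45.5%). The E2F-type strings were present in 44.8% of S phase promoters (13 of 29) against 4.58% of all, 10.7% of those of genes with at least 50 CPM in cluster 17, 8.2% of histone and 2.17% of G2/M promoters. A match is a run of letters in this window, and no binding was measured.

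Genes lower in cluster 17 included those of blood monocytes. Plac8, abundant in newly arrived monocytes, was at 2.06, 31.0 and 172.4 CPM against 173.9, 543.2 and 2083 CPM in the other macrophages. Ly6c2, which encodes a surface marker of inflammatory monocytes, was at 0, 39.8 and 106.0 CPM against 85.7, 384.3 and 1562 CPM. Thbs1 (thrombospondin 1) was at 0, 12.9 and 96.4 CPM against 38.6, 149.7 and 511.0 CPM. All 3 were lower in 33 of 33 tumors, although the highest tumor of cluster 17 overlapped the lowest of the others for Ly6c2 and Thbs1. Of 20 monocyte genes measured, 12 were 2-fold or more lower and 2 higher, with a median ratio of 0.310. Genes known from the patrolling monocyte went both ways. Cx3cr1 (460 CPM, ratio 2.39) and Spn (36.4 CPM, ratio 2.48) were the 2 higher genes, whereas Ace and Nr4a1 were among the 12 lower genes. Ccr2, the receptor that draws monocytes into tissue, was at 271 CPM against a mean of 393.7 CPM (ratio 0.689).

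Type I interferon-stimulated genes were low as a group: 16 of 23 measured were 2-fold or more lower and 0 higher, with a median ratio of 0.409. Isg15, a ubiquitin-like antiviral protein, was at 60.2, 162.6 and 327.2 CPM against 183.5, 359.1 and 717.8 CPM and lower in 32 of 33 tumors. Rsad2 (viperin) was at 22.6 CPM against a mean of 148.0 CPM over the other clusters, and Ifit1 at 13 against 71.9 CPM. Inflammatory cytokine and chemokine genes were lower in 9 of 17 (median ratio 0.469). Il1b (interleukin 1 beta) was at 34.2, 272.3 and 1056 CPM against 302.9, 1003 and 2291 CPM, lower in 33 of 33 tumors. Ptgs2, which makes prostaglandins, was at 13.1 against 54.2 CPM. Arg1 (arginase 1) was at 89.5, 218.6 and 800.8 CPM against 219.1, 633.4 and 1387 CPM. Cd274 (PD-L1) was at 50.1 CPM against 187.5 CPM and lower in 33 of 33 tumors.

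Some of the lowest ratios came from a single other cluster. Ctsk, Mmp9, Atp6v0d2 and Acp5, all known from osteoclasts, were near 0 to 46.4 CPM in cluster 17, and cluster 15 alone had 2538, 469.6, 415.1 and 2778 CPM of them. Retnla was at 0.951 CPM in cluster 17 and its mean over the other clusters (231.3 CPM) rested mostly on cluster 9. With the other clusters summed instead of averaged, 94 genes in place of 224 were lower and 288 in place of 296 higher, so the count of lower genes depended on the small clusters.

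For some other functions of macrophages no listed gene met the rule of 2-fold and 80% of tumors. Of 12 MHC class I genes 0 met it (median ratio 0.823), of 5 Fc gamma receptor genes 0 (0.886), of 12 efferocytosis genes 0 (1.08), of 20 oxidative phosphorylation genes 0 (1.07) and of 86 cytosolic ribosomal protein genes 0 (1.08). Of 21 IFN-gamma induced and MHC class II genes 3 were lower (Cd274, Socs1 and Nos2), and the invariant chain gene Cd74 was at 7846 CPM against 7304 CPM. Lysosome genes were lower in 2 of 23 and complement genes in 2 of 10. The lipid-associated macrophage genes were lower in 7 of 15, glycolysis and hypoxia genes in 8 of 28 and CC chemokine genes in 5 of 11. Each of these 3 lists had 0 higher genes, with median ratios of 0.586, 0.672 and 0.632. The arginine and immune-regulatory genes were lower in 6 of 16 (0.651), the matrix metalloproteinase genes in 4 of 10 (0.538), the macrophage transcription factors in 6 of 21 (0.559) and the immediate early and heat shock genes in 6 of 23 (0.608). The resident and scavenger receptor genes were lower in 2 of 13 by the rule of 2-fold and 80% of tumors. Their median ratio was 0.4, so more of the 13 were past 2-fold in the ratio alone. In each of these last 5 lists the lower share was above the 5.3% of all genes measured.

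**Figure D3:**
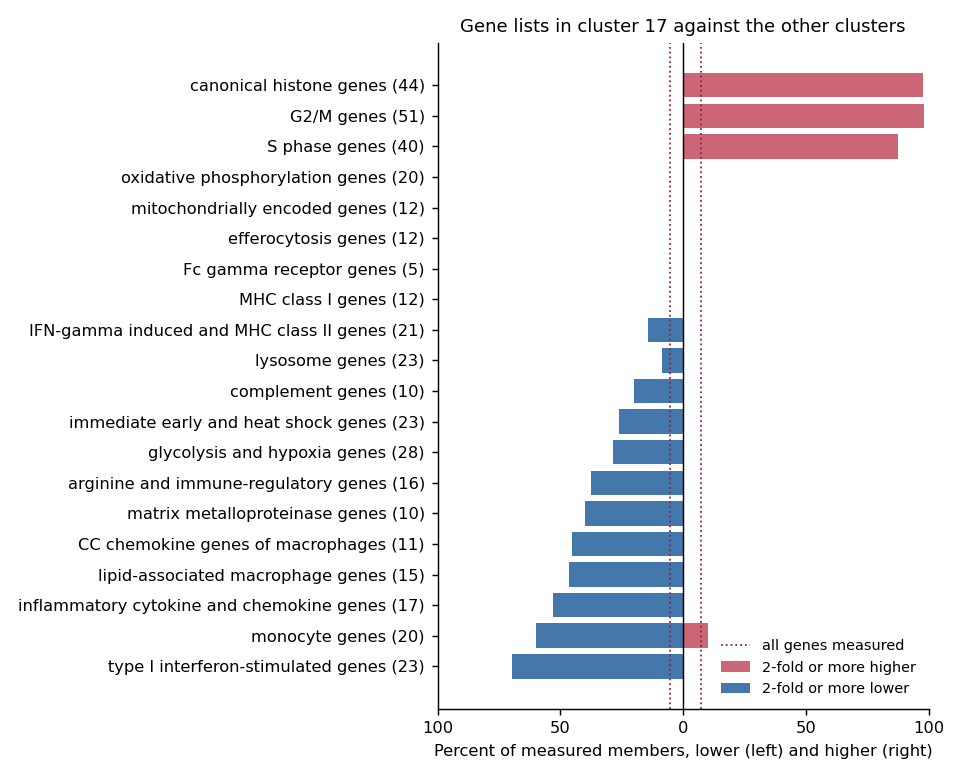
Share of each list (percent of members with at least 10 CPM, their number in brackets) that was 2-fold or more higher (right) or lower (left) in cluster 17 than in the mean of the other macrophage clusters. A counted gene also had the same direction in at least 80% of tumors. Dotted lines are for all genes measured, and there was no test. The histone, G2/M and S phase lists stand at the higher end (43 of 44, 50 of 51 and 35 of 40 genes), and the type I interferon-stimulated genes at the lower end (16 of 23).

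Cluster 17 was closest to cluster 26 in its levels, and few genes were lower than there. Over 8012 genes the Pearson correlation of log2(CPM + 1) was 0.931 with cluster 26, 0.876 with cluster 5 and 0.864 with cluster 2. Without the genes higher in cluster 17 it was 0.960, 0.920 and 0.907. These are correlations across genes of cells from the same libraries, so they are given without a test. Against cluster 26 alone, 247 of 3490 genes were 2-fold or more higher in cluster 17 (7.08%) and 26 lower (0.745%). Of the 296 leading genes, 236 were also 2-fold or more over cluster 26. Counts against cluster 26 use the ratio alone, without the rule of 80% of tumors, so they are not on the same rule as the list counts above. The histone list was far apart here too (43 of 44 higher, median ratio 9.46), with 47 of 51 G2/M genes (3.86) and 29 of 41 S phase genes (2.55) higher. Of all 8462 genes at 10 CPM or more in either cluster, 530 were higher. Hist1h1b was at 909 CPM in cluster 17 and 16.9 CPM in cluster 26. Ccnb2 and Mcm6, in contrast, had ratios of only 1.46 and 1.83 over cluster 26.

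Of the type I interferon-stimulated genes 1 of 20 was 2-fold or more lower than in cluster 26 (Slfn5; median ratio over the list 0.894) and of the inflammatory genes 0 of 14 (0.851), where 63 of all 8462 genes at 10 CPM or more in either cluster were lower. Among the other lists, 2 of 15 were lower for the monocyte genes (0.768), 3 of 14 for the arginine and immune-regulatory genes (0.816), 2 of 10 for the complement genes (0.768) and 2 of 11 for the CC chemokine genes (0.716). The lipid-associated macrophage genes were lower in 2 of 13 (0.616) and the IFN-gamma induced and MHC class II genes in 2 of 20 (0.751). The resident and scavenger receptor genes were lower in 0 of 10 (0.594). Over all 8462 genes the median ratio was 0.994. Isg15 was at 173 CPM in cluster 17 and 190 in cluster 26, and Il1b at 303.5 and 329.6 CPM. Cx3cr1 was likewise at 460 and 464.7 CPM. Among the 26 of 3490 more highly expressed genes that were lower than in cluster 26 were the chemokine genes Ccl5 (61.1 against 383.2 CPM) and Ccl8 (55.9 against 295.9 CPM). Hmox1 (heme oxygenase 1) was at 47.3 against 119.5 CPM, Abca1, a cholesterol exporter, at 75.9 against 172.1 CPM, Cd274 at 50.1 against 113.7 CPM and Arg1 at 260 against 554.4 CPM. Vegfa (26.9 against 57.9 CPM) and C3 (40.6 against 83.2 CPM) were also among them.

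The share of cluster 17 among macrophages was then compared between the groups of the design, to ask whether the response class of the strain or aPD1 changed it. It varied from 0 to 7.91% over the 48 tumors. In isotype tumors it was 0.8, 2.85 and 6.86% (lowest, median and highest; 3.41% ± 2.23, SD, n = 10) in responder strains and 0, 3.39 and 7.91% (3.4% ± 2.79, n = 9) in non-responder strains. These ranges lay over each other, and the difference of means was 0.00535 percentage points (exact permutation test of the rank sum, two-sided, p = 0.905, adjusted p = 0.905 over 6 comparisons of shares). In aPD1 tumors it was 0.135, 2.01 and 5.77% (2.61% ± 2.15, n = 10) in responder strains and 2.66, 3.70 and 6.36% (4.19% ± 1.36, n = 9) in non-responder strains, a difference of -1.58 points (exact p = 0.0789, adjusted 0.237). Without 1 strain it was -0.678 (CC075), -0.870 (CC079) or -2.26 points (CC002). Within pools 8 to 12 the same difference was -2.06 points (0.958% ± 0.893, n = 5, against 3.02% ± 0.473, n = 4), with an exact p = 0.0159 and an adjusted p = 0.0794. Within pools 1 to 5 it was -0.856 points (exact p = 0.421, adjusted 0.701). The adjusted p did not pass the threshold in either set. In pools 8 to 12, 3 of the 5 responder tumors with aPD1 were CC075 and 3 of the 4 non-responder tumors were CC036. The difference in that set is therefore mainly between these strains.

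No treatment difference in the share passed the threshold. Tumors with aPD1 differed from isotype tumors by -0.793 points in responder strains (permutation p = 0.395, adjusted 0.474) and by 0.789 points in non-responder strains (exact p = 0.387, adjusted 0.474). Pairing tumors of 1 pool and strain, aPD1 was higher in 3 of 10 responder pairs (exact p = 0.25) and 6 of 9 non-responder pairs (exact p = 0.391). The difference of the treatment effects was -1.58 points (exact p = 0.156, adjusted 0.313). The CC075 tumors had the lowest mean over all pools, though within pools 8 to 12 the 2 B6 tumors were lower (mean 1.05% against 1.13%). They were at 0.135, 0.164 and 1.26% with aPD1 and 1.22, 1.61 and 2.37% with isotype, lower with aPD1 in each of the 3 pairs.

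Strain and pool moved together. The mean share was 5.26% ± 1.74 (SD) in CC079, 3.83% ± 2.24 in CC001, 3.80% ± 2.02 in CC002, 3.25% ± 2.45 in CC080, 2.88% ± 1.71 in CC036, 2.04% ± 0.962 in B6, 1.57% ± 1.17 in CC007 and 1.13% ± 0.863 in CC075, with SDs that overlap between neighbours in this order. Across the 8 strains the Kruskal-Wallis statistic was 17.6 (permutation p = 0.00793, adjusted 0.0476). When strain labels were permuted only within the set of pools and treatment, p was 0.448. The sets of pools differed: the share was 4.77% ± 1.81 (n = 20) in pools 1 to 5 and 1.76% ± 1.32 (n = 20) in pools 8 to 12. In CC001, CC002 and CC080, the 3 strains present in both sets, it was 4.56% ± 1.86 (n = 14) and 1.53% ± 0.838 (n = 6), a difference of 3.03 points. The 6 late tumors came from only 2 pools (11 and 12) and tumors of 1 pool are not independent, so no test is given. CC079 was in the first set alone, CC036 and CC075 in the last alone and CC007 in pools 6 and 7 alone. The other macrophages moved the same way, with at least 5 cycle UMIs per 1000 in 15.5% ± 4.56 (n = 20) of them in pools 1 to 5 and 7.87% ± 4.00 (n = 18) in pools 8 to 12, counting classed strains. For CC079, CC036, CC075 and CC007 strain and pool set cannot be told apart.

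At the low end, the pool 8 CC036 isotype tumor had 0 of 323 macrophages in cluster 17, which allows a share of up to 0.929% (3 counts), and the pool 6 CC007 aPD1 tumor had 0 of 30, which allows 10%. Such limits cover counting error alone.

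**Figure D4:**
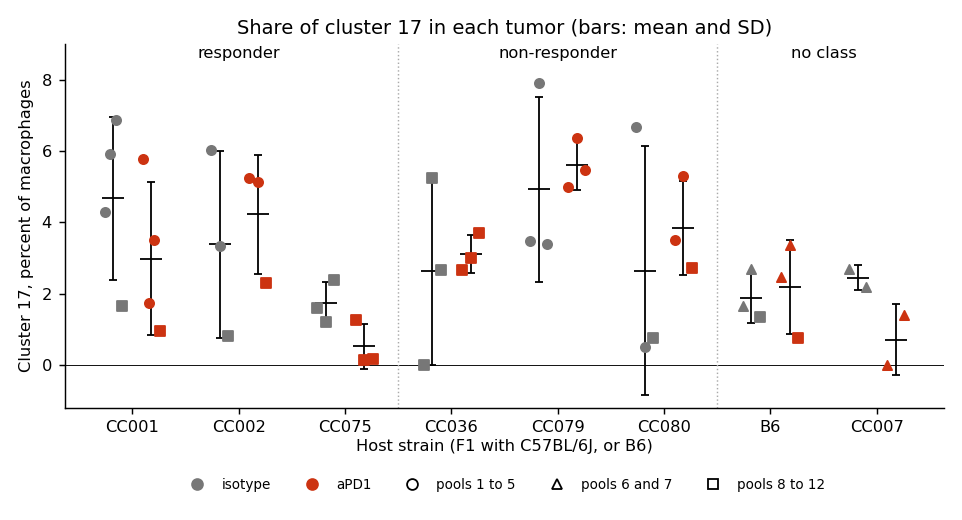
Share of cluster 17 among macrophages (percent) per tumor, by strain and treatment, with marker shapes for the sets of pools and bars for the mean and SD. The mean of pools 1 to 5 (4.77%) is above that of pools 8 to 12 (1.76%) while their tumors overlap (0.495 to 7.91% and 0 to 5.25%), and isotype and aPD1 points mix within most strains.

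Gene levels within cluster 17 were compared between response classes with treatment in the model, over the 28 classed tumors with at least 20 cells (13 responder and 15 non-responder). Only 1 of them was a CC075 tumor, so the responder class rests on CC001 and CC002. Of 6709 genes tested, 71 passed an adjusted p of 0.05 (1.06%; edgeR quasi-likelihood test, Benjamini-Hochberg), 52 higher in responder strains (0.775%) and 19 lower (0.283%). Scaling by library size alone gave 92, of which 41 were higher and 51 lower, so the balance of directions depended on the scaling. The count also depended on the strains and pools: it was 32 without CC001, 22 without CC079, 146 without CC080 and 3 in pools 8 to 12. Of the lists that led cluster 17, 0 of 37 S phase, 0 of 50 G2/M and 1 of 38 histone genes passed, which is near the 1.06% of all genes. The histone gene was Hist1h2bb (0.83 ± 0.19 on the log2 scale), whose median was 62.8 CPM in CC001 but 31.5 in CC002 and 7.93 in the CC075 tumor, against 31.2 CPM in CC079, 27.2 in CC080 and 21.7 in CC036.

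The largest difference was in Gm10260 (chr13:97760072-97760632, minus strand), a gene close in sequence to the ribosomal protein gene Rps18. It was at 637.6, 791.0 and 955.1 CPM in non-responder strains and 0, 4.29 and 11.7 CPM in responder strains (log2 difference -7.07 ± 0.18 SE, adjusted p = 2.39e-26, edgeR). Rps18 itself (chr17:33951999-33956001, minus strand) was at 1098, 1316 and 1482 CPM in non-responder and 1751, 2130 and 2314 CPM in responder strains (0.74 ± 0.056, adjusted p = 8.23e-13). These were the only 2 of the 6709 genes whose classes did not overlap (0.0298%). The sum of the 2 genes was 1751 to 2318 CPM (median 2141) in responder and 1792 to 2408 CPM (median 2109) in non-responder strains, so the sums overlapped. The annotated transcripts, 560 and 561 bases long, differ by 32 edits (94.3% alike), and reads of either may be counted for the other. B6 tumors were like the responder strains and CC007 tumors like the non-responder strains for both genes.

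**Figure D5:**
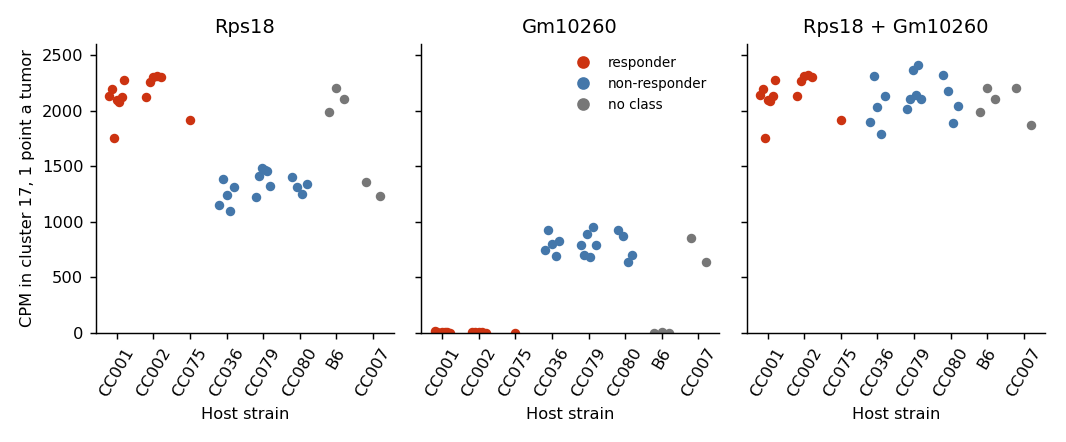
Rps18, Gm10260 and their sum in cluster 17 (CPM) per tumor, by strain. Gm10260 is at 637.6 to 955.1 CPM in the 3 non-responder strains and at most 11.7 CPM in the 3 responder strains, while the sum is at 1751 to 2408 CPM in both.

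Among the other genes higher in responder strains, Ndrg1, a stress-induced gene, was at 15.8, 36.6 and 70.7 CPM against 4.31, 11.6 and 21.7 CPM (1.55 ± 0.22, adjusted p = 4.74e-05). Acvrl1, a receptor of the TGF-beta family, was at 14.7, 26 and 44.9 CPM against 2.15, 11.3 and 22.8 CPM (1.30 ± 0.21). Spn (CD43), which was also higher in cluster 17 than in other macrophages, was at 38.6, 45.2 and 67.2 CPM against 16.7, 25.4 and 43.9 CPM (0.80 ± 0.14, adjusted p = 0.00162). The class ranges of all 3 genes overlapped, and of the responder strains CC002 had the lowest medians of Ndrg1 and Acvrl1, with values of 19.5 CPM for Ndrg1 (41.1 in CC001, 17.8 in CC036) and 21.4 CPM for Acvrl1. Ly6i, a member of the Ly6 family, rose by 3.75 ± 0.66 but unevenly: it was at 100.1 to 800.3 CPM in CC001 and 0 to 25.7 CPM in CC002. Without CC001 its difference was 0.15 (adjusted p = 0.982).

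Tap1 and H2-T22 were also among the genes of smallest p. Tap1, the peptide transporter of the MHC class I pathway, was at 86.1, 122.4 and 229.9 CPM in responder and 50.1, 78.3 and 126.6 CPM in non-responder strains (0.68 ± 0.13, adjusted p = 0.0035). H2-T22, a non-classical MHC class I gene, was at 50.03, 86.8 and 145.9 CPM against 33.4, 43.5 and 103.0 CPM (0.81 ± 0.15). The ranges of both overlapped. Of the 12 genes in the fixed MHC class I list, which leaves out H2-T22, 2 passed (Tap1 and Psmb8, an immunoproteasome subunit). All 12 had a positive difference, with a median of 0.34. Other MHC class I genes outside that list also passed: H2-Q7 (0.79 ± 0.16, edgeR adjusted p = 0.00884) and H2-M3 (0.52 ± 0.14, adjusted p = 0.0459). Over all 6709 genes tested 1.06% passed, 3305 were positive and the median was -0.0032. Of 20 IFN-gamma induced and MHC class II genes 0 passed, and 20 were positive (median 0.59). Of the 10 antigen presentation and costimulation genes 0 passed (7 positive, median 0.11). Complement C1qb and C1qc rose by 0.50 ± 0.12 and 0.49 ± 0.12, but they were the only 2 of 9 complement genes to pass, 4 of 9 were positive and the median was -0.041. The Fc receptor genes Fcgr4 and Fcer1g rose by 1.15 ± 0.28 and 0.29 ± 0.071 (2 of 5 passed, 4 positive). Of the called genes with a known position, 9 of 69 lay on chromosome 17 (13%), which carries the MHC, against 5.17% of the genes tested. MHC genes differ in sequence between strains, and how that changes the counts was not tested.

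Genes lower in responder strains included Fn1 (fibronectin), at 158.3, 340.2 and 595.0 CPM against 300.4, 798.9 and 1650 CPM (-1.04 ± 0.22, adjusted p = 0.0166). Dpys (dihydropyrimidinase) was at 0, 4.57 and 13.3 CPM against 4.31, 27.2 and 35.5 CPM (-1.84 ± 0.31). H2-DMb2, an MHC class II chaperone gene, was at 4.06, 18.9 and 30.3 CPM against 4.06, 57.3 and 126.8 CPM (-1.52 ± 0.32). Its low values reached as far down in non-responder as in responder strains, with CC080 at 4.06 to 40.9 CPM.

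None of these class differences was shown to be particular to cluster 17. The class difference in cluster 17 was set against that in the other macrophages of the same tumors, and 0 of 10553 genes (0%) passed in edgeR, with 584 at an unadjusted p under 0.05 and 0 by DESeq2. Spn, for example, was at 11.9, 21.1 and 32.9 CPM in the other macrophages of responder strains and 8.13, 14.52 and 24.7 CPM in those of non-responder strains. Gm10260 was at 516.8 to 988.2 CPM in the other macrophages of non-responder strains and at 0.261 to 18 CPM in those of responder strains.

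Between aPD1 and isotype tumors few differences were found in the genes of cluster 17. The tumors compared held 0 of 3 CC075 tumors with aPD1 and 1 of 3 with isotype, so the responder strains rest on CC001 and CC002. CC080 gave 3 of 3 tumors with aPD1 and 1 of 3 with isotype. In responder strains 0 of 5939 genes (0%) passed in edgeR (163 at an unadjusted p under 0.05, 0 by DESeq2), in non-responder strains 0 of 6889 (0%; 159 and 0), and the treatment effect differed between classes in 0 of 7096 (0%; 205 and 0). Against the treatment difference in the other macrophages of responder strains, 0 of 10519 genes (0%) passed (425 unadjusted, 0 by DESeq2). Tumors of 1 pool and strain share a library, and a fit with that pair as a replicate block called 2 genes in responder and 1 in non-responder strains. In responder strains Mmp12, the macrophage elastase, was at 31.7, 146.3 and 217.4 CPM with isotype and 15.9, 94.2 and 171.7 CPM with aPD1, lower in each of 5 pairs (-1.12 ± 0.17, adjusted p = 0.00235, edgeR with the block). Ifi27l2a, an interferon-stimulated gene, was at 426.4, 834.8 and 1235 CPM and 603.1, 912.7 and 1424 CPM, higher in 5 of 5 pairs (0.47 ± 0.084, adjusted p = 0.0104). Of the 15 type I interferon-stimulated genes tested without the block in these strains, 0 passed and 5 had a positive difference, with a list median of -0.038 against -0.0045 over all genes. In non-responder strains Arg1 was at 89.5, 146.0 and 551.1 CPM with isotype and 148.0, 394.0 and 800.8 CPM with aPD1, higher in 6 of 6 pairs (1.10 ± 0.13, adjusted p = 6.64e-05). All 3 genes overlapped between treatments and were told apart within pairs alone. The block fit called these genes from the same pairs, so the pair counts describe them and are not separate support. How many of all genes tested went the same way in every pair was not counted. The block fits left 4 (responder) and 5 (non-responder) residual degrees of freedom.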

How the data were processed

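The authors deposited raw UMI counts per gene and cell, with a table of each cell's cluster, pool, strain and treatment. Per the labels and methods, reads were aligned to mm10 (GRCm38) with Cell Ranger, cells were assigned to tumors by hashtag and clustered in Seurat 5.0.1, and cells above the study's mitochondrial and ribosomal limits were removed. Whether doublets were removed beyond the hashtag step is not given in the sources used here, and no doublet caller was run. The counts were used as deposited for 27457 symbols. No per-sample column was left unused.

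Counts were summed per tumor over cluster 17 and over the other macrophage clusters. Tumors with at least 20 cluster 17 cells entered gene levels and tests, which used edgeR 4.0.16 in R 4.3.3 (filterByExpr, TMM, robust quasi-likelihood test) with Benjamini-Hochberg adjustment over all genes tested, and DESeq2 1.42.0 as an alternative. The named genes were the 20 highest and 15 lowest ratios past 2-fold with at least 50 CPM and the same direction in at least 80% of tumors, and the 10 smallest p-values in each direction between classes. Genes chosen from the fixed lists, and those called under 1 alternative alone, were named after their values were seen. Shares were tested by exact permutation, or by 100000 permutations where both groups held 10 or more tumors. The edgeR steps for comparisons within cluster 17 were tested on simulated counts without strain or pool effects, and those against the other macrophages were not. The members, gene lists and tests were chosen with earlier results of these data known. Response class is the study's classification of strains and is not part of the sample labels. Pool numbers mark a shared library. Over 19 pairs of tumors of 1 pool and strain, shares deviated together from the means of their class and treatment (r = 0.463). Over 11 such pairs gene levels correlated at 0.0939 to 0.297. Pool and strain cannot be told apart in these pairs. Over 9 pairs of 1 pool and treatment, with a responder and a non-responder strain, gene levels correlated at -0.075 to 0.161 (median 0.0346). Depth per tumor limits precision, since the 33 tumors held 183607 to 1185000 cluster 17 UMIs each. Alternatives were other scalings, filters, cell minimums, pools, left-out strains and blocks. Python 3.11.15 (numpy 2.4.6, pandas 2.3.3, scipy 1.17.1, matplotlib 3.10.9) did the rest. Promoter windows came from RefSeq and gene positions from GENCODE.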

Additional observations from a re-analysis of the deposited data

How the results depend on the processing

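The share difference between classes in isotype tumors was near 0 and its sign turned to -0.0544 points as a share of all cells, -0.639 in pools 8 to 12, -0.842 without CC001, -0.377 without CC036, -0.372 without CC080 and -0.136 over strain means, none past the threshold. Strain means allow no p under 0.1. The test across strains (statistic 17.6) lost its call when strains were permuted within pool set and treatment (permutation p = 0.448), which was chosen after seeing the data, and with cells of at least 1000 UMIs (17.1, permutation test, adjusted p = 0.0617). With the pool as replicate block the class differences in share were 0.126 (isotype, exact p = 0.891) and -1.52 points (aPD1, exact p = 0.0859).

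The 71 genes called between classes became 142 by DESeq2, 136 with a filter of 10 counts in all, 23 with at least 50 cells per tumor, 32 without CC001, 22 without CC079, 146 without CC080, 125 without the 2 CC080 tumors that share an animal identifier, 124 with the replicate block and 3 in pools 8 to 12 (Cdk8, Gm10260 and Rps18). Of the 20 named genes, 63 of 313 alternative values lost the threshold and 0 changed sign. The class difference against the other macrophages gave 1 call with 10 counts in all, 3 without CC001, 1 without CC002 and 1 without the shared identifier. The treatment difference in responder strains against the other macrophages gave 5 with 10 counts in all, 4 with at least 50 cells, 3 without CC001, 3 without CC002 and 1 without CC075. Treatment in responder strains gave 1 without CC001 (Cxcl9) and 2 with the replicate block, and in non-responder strains 1 with the replicate block. Treatment in responder strains was not fitted in pools 8 to 12, where too few tumors were left. With the replicate block 50 of the 71 class genes were still called, and no call on the class or treatment differences in share changed. The cause of these changes was not tested, beyond fewer tumors or genes where these are left out.

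The 296 higher and 224 lower genes became 517 and 361 with a minimum of 20 CPM and 155 and 127 with 100 CPM, which change the genes counted. The lower genes became 94 with the other clusters summed. The 35 named ratios stayed past 2-fold in the same direction in 175 of 175 alternative values.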
